A study of Mus musculus with 4 samples.

Results

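The T cell receptor alpha and delta genes share one locus, Tcra and Tcrd, and its Rad21 peaks were described in v-Abl pro-B cell lines that had or lacked 53BP1. Members were all deposited peaks lying fully inside chromosome 14 at 52900001 to 54900000 (mm9), merged over the 4 lists wherever they touched. This gave 94 regions from 265 peaks, of 34743 merged regions on the placed chromosomes, and 0 peaks crossed a border of the window. The window was divided into 8 bins of 0.25 Mb. The 7 bins below 54.65 Mb were taken as the V array and the last bin as the delta, J alpha and C alpha end, which also holds the enhancer.

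Both WT libraries came from cells with an Emu-Bcl2 transgene and RAG1 deficiency, and both knockout libraries from cells that carried a 53BP1 knockout besides. All 4 had received STI-571 at 3 uM over 4 days. Such lines grow on the v-Abl oncogene, a viral kinase, and STI-571 inhibits that kinase. The labels do not say whether the 2 libraries of a genotype are separate clones or cultures, so any spread between them may be technical. Titles and protocol name an antibody to Rad21, whereas the treatment field names one to 53BP1, and the titles are followed here. Where 4 values stand in a row without labels, they are in the order WT 1, WT 2, knockout 1 and knockout 2, with 1 and 2 the replicate numbers.

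Rad21 is the subunit that closes the cohesin ring, which extrudes chromatin loops and halts at bound CTCF. In thymocytes such loops bring V alpha segments, spread over a long array, next to the J alpha segments, whose rearrangement is driven by the enhancer behind the constant gene. The delta segments lie inside the alpha locus, between the V array and J alpha. The locus does not normally rearrange in pro-B cells, and cells without RAG1 cannot cut it. By name and order alone, a RefSeq gene table of another build (GRCm38) lists 130 Trav segments, of which 40 carry a d and 34 an n in their names, the marks of copies of a duplicated block. It lists 6 Trdv, 2 Trdd, 2 Trdj and 60 Traj segments, and places Dad1, Abhd4 and the olfactory receptor gene Olfr49 next after Trac, with other olfactory receptor genes next to Trav1. No mm9 annotation or sequence was used here, so regions are given by position and none is assigned to a segment.

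Rad21 peaks lay densely but unevenly in the locus. The first WT library held 64 peaks in the window, the second 61, the first knockout library 68 and the second 72. These were 0.291%, 0.265%, 0.270% and 0.316% of the whole lists. Mean density was 33.1 ± 2.39 peaks per Mb (SD, n = 4 libraries), against 8.81 ± 0.513 over the placed chromosomes, measured up to the last peak on each. The difference of 24.3 peaks per Mb was positive in 4 of 4 libraries. The two-sided exact sign-flip permutation p was 0.125, the lowest that 4 libraries allow (adjusted p = 0.3125, Benjamini-Hochberg over the 10 tests made here). All 4 libraries measured the same stretches of genome. This p and those of the other density comparisons thus speak only to the spread between libraries. Peaks were narrower here than in each list as a whole: the median width was 379, 426, 393.5 and 536.5 bp, against 512, 509, 476 and 564 bp. Fold enrichment over background, the authors' value for each peak, had medians of 4.05, 4.02, 4.20 and 3.57, beside 4.10, 4.06, 4.15 and 3.67 in the lists as a whole. The highest fold in the locus was 6.96, in the first knockout list, and the lowest was 2.66, in the second.

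**Figure D1:**
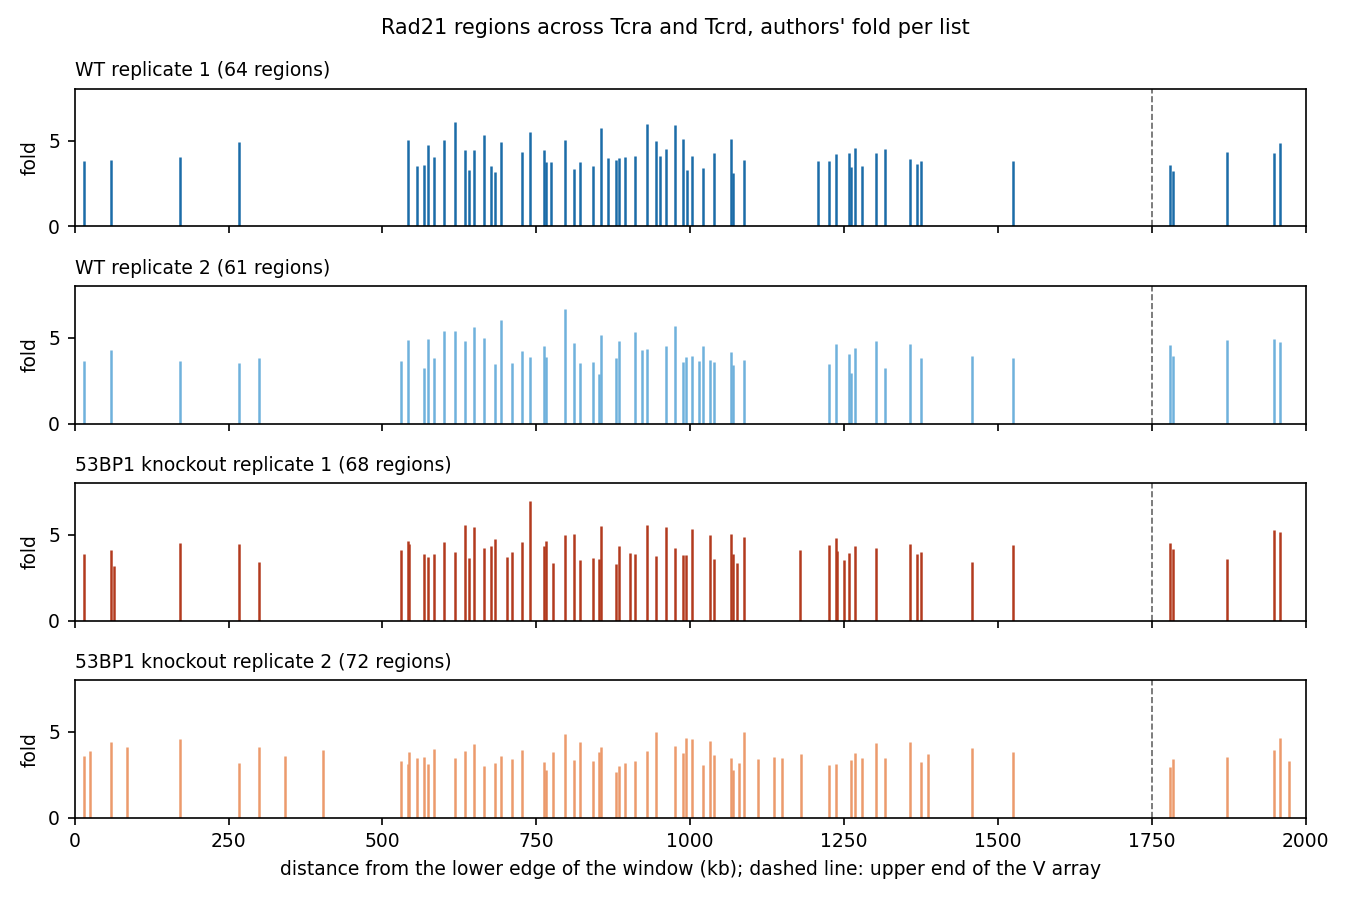
Position of each Rad21 region (x axis, kb from the lower edge of the window) and the authors' fold of its peak in each list (y axis, on that list's own scale), 1 panel per library; the dashed line is the upper end of the V array. All 4 panels show a crowded middle of the V array, sparse outer parts and a long empty stretch below the dashed line.

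The middle of the V array carried most of the peaks. Bins 3 to 6, from 53.4 to 54.4 Mb, held 77 of the 94 regions (81.9%), and 84.4%, 82.0%, 82.4% and 77.8% of the locus peaks of WT 1, WT 2, knockout 1 and knockout 2. These 4 bins were singled out after their values were seen, as those above the locus mean of 8.28 peaks per bin. Bin 4 (53.65 to 53.9 Mb) was the fullest, with 20, 17, 19 and 18 peaks. Its mean of 18.5 was the highest of all 6963 bins on this grid that held a peak in any list, whose median was 2.75. Bin 3 followed with 16, 15, 18 and 15 peaks, a mean above that of 99.94% of these bins, then bin 5 with 9, 10, 11 and 14, and bin 6 with 9, 8, 8 and 9. Regions of these bins lay a median of 10.8 kb apart, midpoint to midpoint, where the median over all regions of the series was 25.2 kb.

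Toward both ends of the V array the peaks thinned out. Bin 1, nearest the olfactory receptor side, held 3, 3, 4 and 5 peaks, and bin 2 held 1, 2, 2 and 4. Bin 7 (54.4 to 54.65 Mb) held a single region, called once in each library. The longest stretch without a peak in any library ran from 54424411 to 54679081, 255 kb that spanned the boundary set between the V array and the delta segments, and it was longer than 95.1% of all gaps between neighbouring regions in the series. The next were 126 kb at 53304075 to 53429777, just below the crowded bins, and 96.1 kb at 53071215 to 53167309. The median gap inside the locus was 10.7 kb, against 24.5 kb over the series. In the flanks, the 1 Mb below the window held 10, 12, 12 and 13 peaks and the 1 Mb above it 26, 33, 28 and 26.

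**Figure D2:**
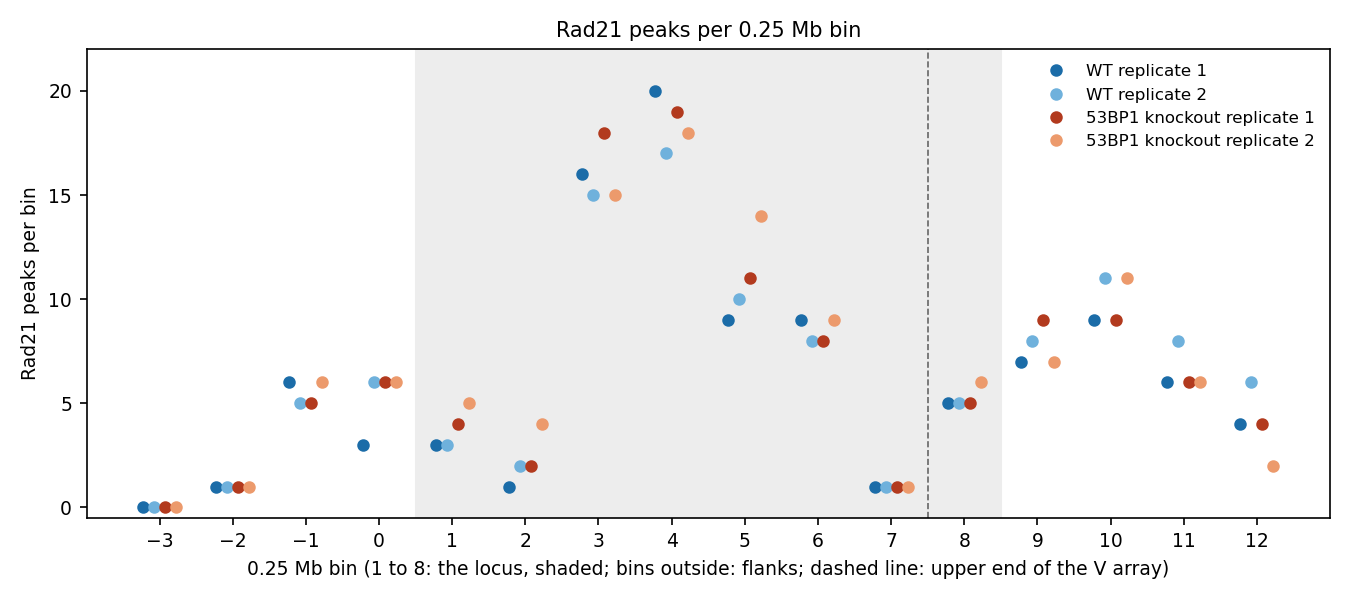
Rad21 peaks per 0.25 Mb bin (y axis) in each library (points) for the 8 bins of the locus (shaded) and 4 bins on either side (x axis, bin number); the dashed line is the upper end of the V array. Bins 3 and 4 hold 15 to 20 peaks in every library and bin 7 holds 1.

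Rad21 regions of the crowded V bins recurred at a fixed distance. Midpoints of regions were compared at all distances from 10 kb to 1 Mb, in steps of 250 bp and within 500 bp, a description chosen after the values were seen and carrying no p. The most frequent distance was 311 kb, with 22 pairs, where the median distance had 4 and the 99th percentile was 11. The single lists gave the same distance to within 1 step of 250 bp: 13 pairs at 310.75 kb in WT 1, 11 at 311 kb in WT 2, 15 at 311 kb in knockout 1 and 13 at 310.75 kb in knockout 2. The next most frequent distance was 15.5 kb in WT 1, with 12 pairs, 414.5 kb in WT 2, with 9, 11 kb in knockout 1, with 10, and 76.25 kb in knockout 2, with 10. In single lists 311 kb thus led by 1 to 5 pairs, where the median distance had 1 or 2. In the Igh and Igk windows, analysed the same way, the most frequent distances were 231.75 kb (18 pairs of 140 regions) and 46.5 kb (17 pairs of 161 regions). The median distance there had 5 and 6 pairs, and the 99th percentiles were 12 and 13. The most frequent distance differed between the 4 lists in Igh, namely 691, 143, 53.5 and 550.75 kb. Some of these recurred as next most frequent in another list. In WT 1 this was 550.5 kb, with 11 pairs, and in knockout 2 it was 53.75 kb, with 10. In knockout 1, 691 kb tied with the first at 11 pairs. In Igk both WT lists gave 46.25 kb and the knockout lists 179.5 and 104 kb. With a tolerance of 250 bp the distance in Tcra and Tcrd was again 311 kb, with 13 pairs. With 1000 bp, 311 kb and 11.25 kb, near the spacing of neighbours, tied at 25 pairs each.

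The pairs joined neighbouring stretches of the V array, each bounded by its first and last paired region, so that their equal length follows from the pairing. The lower stretch ran from 53429778 to 53676532 and the upper one from 53741031 to 53987831. In the lower stretch 22 of 25 regions had a partner 311 kb above, and in the upper stretch 21 of 28 had one below, since 2 lower regions shared 1 partner. Distances within pairs ranged from 310.53 to 311.43 kb. The lower stretch had 3 regions without a partner, of which 53661268 to 53662341 was called in all 4 libraries. The upper stretch had 7, of which 53965195 to 53965775 and 53968761 to 53969175 were called in all 4. In 5 of the 22 pairs both regions were called in every library, in 11 one of them was, and in 6 neither was. Over the series, 41.7% of regions were called in every library, and 21 of the 43 paired regions were. The widest region of the locus, 53563873 to 53566029 (2157 bp), was paired with the widest of bin 4, 53875048 to 53876557 (1510 bp), at 310.851 kb, and both were called in all 4 libraries. Folds of the lower one were 5.29, 5.00, 4.25 and 3.02, and those of the upper one 5.90, 5.68, 4.25 and 4.21. How the authors treated reads that map to more than one copy of a repeated sequence is not given in the sources used here, and its part in this recurrence, or in which copy was called, was not tested.

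**Figure D3:**
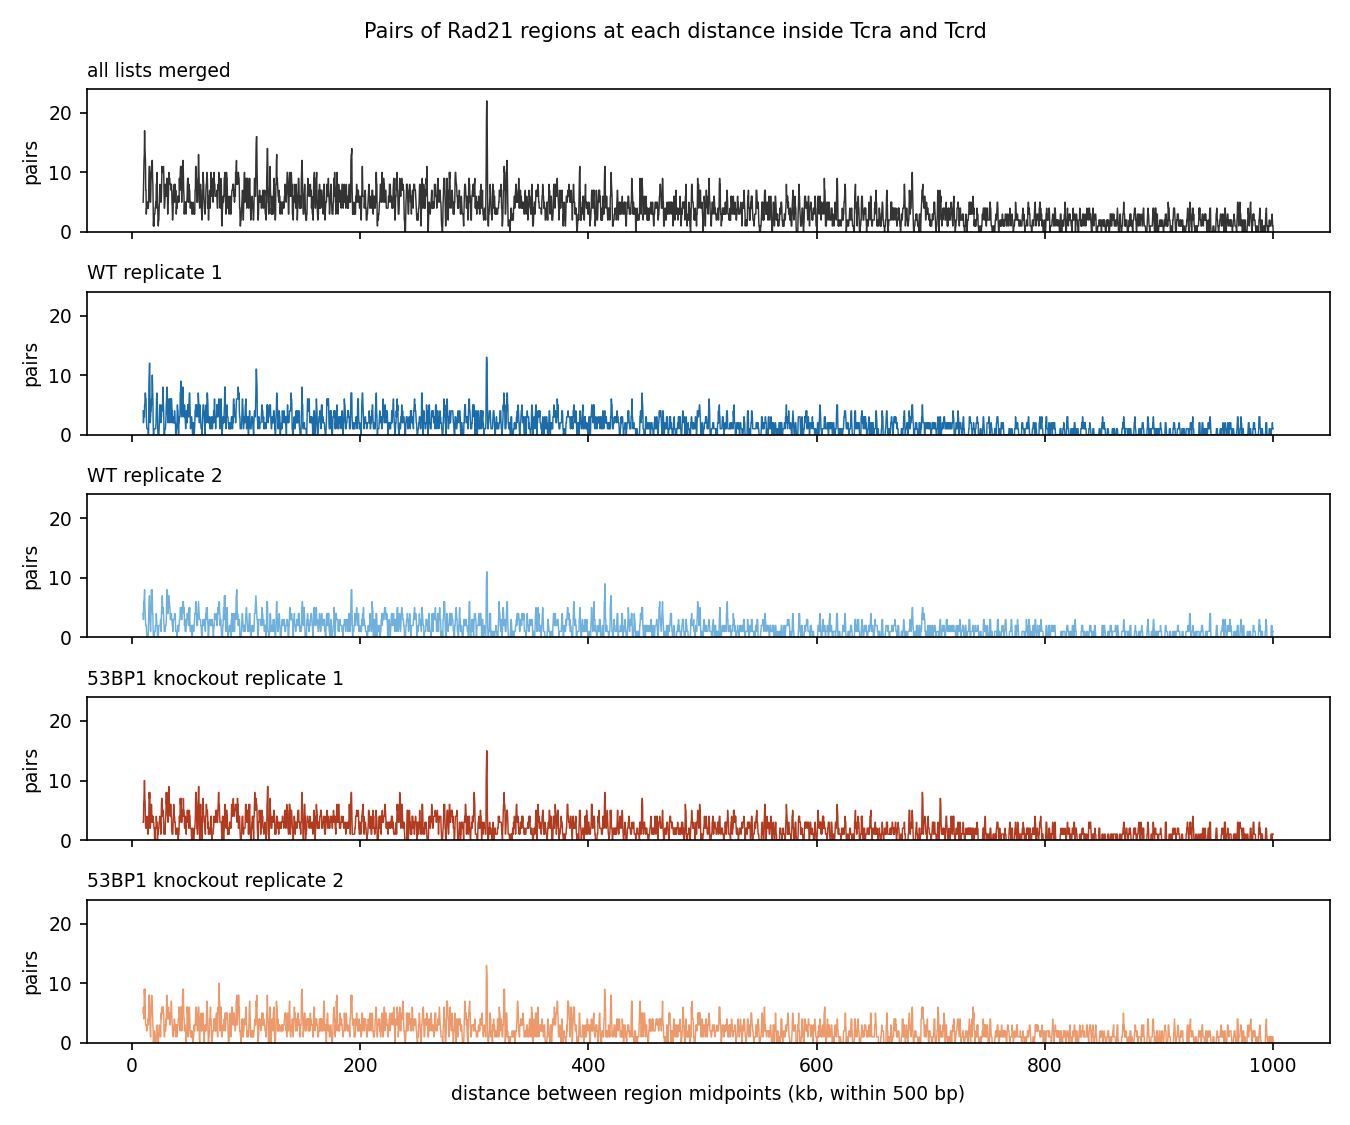
Number of pairs of Rad21 regions (y axis) at each distance between midpoints (x axis, kb, within 500 bp), for all lists merged and for each library. A spike stands at 311 kb in the merged set, with 22 pairs, and at 310.75 or 311 kb in every single list.

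**Figure D4:**
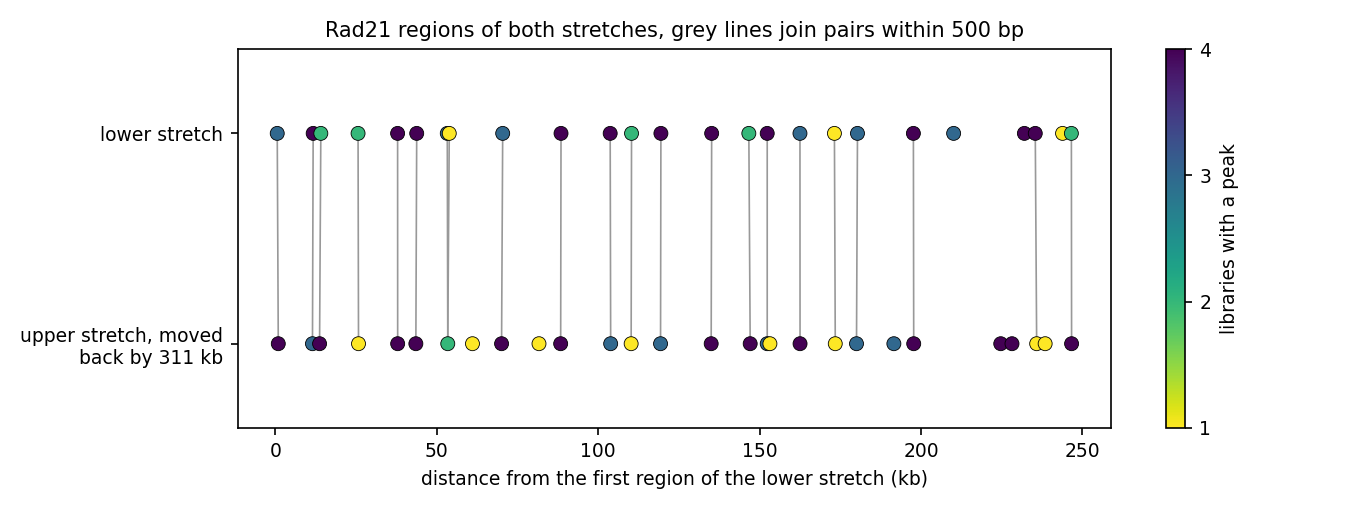
Regions of the lower stretch (top row) and of the upper stretch moved back by 311 kb (bottom row), by distance from the first lower region (x axis, kb); colours give the number of libraries with a peak and grey lines join pairs within 500 bp. Of the 25 lower regions 22 are joined, and paired regions often differ in the number of libraries that called them.

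The strongest region common to all libraries was picked in each bin by its lowest within-list percentile of fold. In bin 4 this was 53695536 to 53696265, with folds of 5.05, 6.69, 5.00 and 4.90 and −log10 q of 5.31, 9.89, 5.16 and 8.01. It lay in the 64.5 kb between the stretches that recur. In bin 3 it was 53548914 to 53549546, with folds of 4.47, 5.64, 5.48 and 4.32. Its partner at 311 kb was called in 3 libraries, not in the second knockout list. In bin 5 it was 53903027 to 53903622 (folds 4.07, 3.96, 5.32 and 4.61), and in bin 6, 54166414 to 54167779 (4.57, 4.41, 4.33 and 3.76), which was also the widest there, 1366 bp. In the outer bins these were 52958237 to 52958879 in bin 1 (3.86, 4.27, 4.10 and 4.42), 53167310 to 53168030 in bin 2 (4.92, 3.54, 4.46 and 3.17) and the lone region of bin 7, 54423719 to 54424410 (3.78, 3.80, 4.38 and 3.86). The widest regions of bins 1, 2 and 5 were 53070285 to 53071214 (930 bp), 53199313 to 53200532 (1220 bp, not called in WT 1) and 53938007 to 53939052 (1046 bp). The member nearest the lower border of the window, 52915243 to 52915844, was called in all 4 libraries with folds of 3.58 to 3.89.

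The delta, J alpha and C alpha end held fewer peaks per Mb than the V array as a whole, but almost all its regions were common to the libraries. As a bin it had a mean of 5.25 peaks, above that of 77.2% of all bins with a peak. Bins 1, 2 and 7 of the V array had lower means, 3.75, 2.25 and 1. The end held 5, 5, 5 and 6 peaks, which is 21.0 ± 2.0 peaks per Mb against 34.9 ± 2.51 in the V array (SD, n = 4 libraries). The difference of −13.9 peaks per Mb had the same sign in 4 of 4 libraries (two-sided exact sign-flip permutation p = 0.125, the lowest possible, adjusted p = 0.3125). It depended on which peaks were counted: −6.86 when the −log10 q had to reach 2 and −4.29 when the fold had to reach 4. It grew to −18.4 or −18.8 with the boundary set 50 kb lower or higher. The lower boundary adds part of the 255 kb stretch without a peak to the end. The higher boundary moves the regions at 54679082 and 54684244 into the V array. Of the 6 regions of the end 5 were called in all 4 libraries (83.3%), against 38 of 88 in the V array (43.2%) and 41.7% of all regions of the series. The difference between these shares was not tested. Peaks at this end were also wider, with median widths of 573, 548, 613 and 576.5 bp against 374, 421.5, 377 and 536.5 bp in the V array.

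From the V side onward, the 6 regions formed a close pair, a lone site and a group at the upper edge. The first was 54679082 to 54679883, with folds of 3.59, 4.56, 4.51 and 2.94. The second began 4.36 kb after it, at 54684244 to 54684904 (folds 3.24, 3.95, 4.16 and 3.41). After 87.3 kb without a peak came 54772198 to 54773004, with folds of 4.31, 4.87, 3.60 and 3.56. After another 74.2 kb came 54847249 to 54848608, the widest of this end, with folds of 4.25, 4.90, 5.26 and 3.93. Its −log10 q of 6.57, 10.0, 10.2 and 6.57 included the highest values in the locus for WT 2 and knockout 1. The strongest shared region of the end, 54858486 to 54859388, began 9.88 kb further, with folds of 4.83, 4.73, 5.19 and 4.67. The last, 54873417 to 54873747, was called in the second knockout library alone, at a fold of 3.34. Without an mm9 annotation, which of these sites lies nearest the enhancer or the constant genes was not determined.

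The question of the design was whether cohesin sat differently without 53BP1. In the locus as a whole, knockout libraries held 70 ± 2.83 peaks and WT libraries 62.5 ± 2.12 (mean ± SD, n = 2 each). The difference was 7.5 peaks and the counts of the groups did not overlap. As shares of the whole lists they did, with 0.291% in WT 1 and 0.270% in knockout 1. With equal list lengths the difference was 6 peaks. How often windows over the series separate in this way was not computed. Between libraries of the same number, which also share a prefix in their peak names, the differences were 4 and 11 peaks. The two-sided exact permutation p was 0.333 (adjusted p = 0.556), the lowest that 2 against 2 libraries allow. The V array, which holds most peaks of the locus, had 59, 56, 63 and 66 (difference 7, exact permutation p = 0.333, adjusted 0.556). At the delta, J alpha and C alpha end the difference was 0.5 peaks (exact permutation p = 1, adjusted 1). When the fold had to reach 4, the differences turned to −3 in the locus, −2 in the V array and −1 at the end. That cut fell unequally on the lists. The median fold of the whole second knockout list was 3.67, below the cut, against 4.10, 4.06 and 4.15 in WT 1, WT 2 and knockout 1. At a −log10 q of 2 or more the end gave −0.5. The lists themselves were of unequal length, 21971, 23029, 25145 and 22792 peaks, and read depth is unknown.

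By bin, the knockout counts lay above both WT counts in 2 of 8 bins, namely bins 1 and 5, and in 0 bins lay below. Over all bins of the series with a peak the shares were 10.3% and 4.62%. In bin 5 the knockout libraries held 11 and 14 peaks and the WT libraries 9 and 10. That bin had 10 regions called in a single library, of 19. Bins separated in either direction numbered 4 without WT replicate 2 or knockout replicate 1, and 3 without either of the others, each with fewer libraries to separate. Without WT replicate 2 they included bin 4, where the knockout counts of 19 and 18 lay below the 20 of WT replicate 1.

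Covered length in the locus was 27.3, 30.2, 29.3 and 41.1 kb (knockout minus WT 6.46 kb, exact permutation p = 0.667, adjusted 0.741). The second knockout library stood apart, and without it the difference was 0.511 kb. Median peak width differed by 62.5 bp in the same direction (exact permutation p = 0.667, adjusted 0.741), but by −9 bp without that library and 134 bp without the first knockout library. Between libraries of the same number the differences were 1.98 and 10.9 kb of covered length and 14.5 and 110.5 bp of width. In all, 43 regions had a single peak in every library, with median widths there of 408, 483, 455 and 579 bp (knockout minus WT 71.5 bp, exact permutation p = 0.667, adjusted 0.741). This difference was 24.5 bp without WT replicate 1, 117 bp without WT replicate 2, and 150 and 12.5 bp without knockout replicates 1 and 2. Of these 43 regions, 9 (20.9%) were wider in both knockout libraries than in both WT libraries and 3 (6.98%) were narrower. The backgrounds over the series were 18.0% and 15.3%, so the share of wider regions lay near that of the series. Among the wider ones were 2 of the 5 shared regions of the delta, J alpha and C alpha end. The region at 54679082 measured 385, 397, 442 and 668 bp, and that at 54772198 measured 573, 548, 671 and 661 bp. The neighbour at 54858486 was narrower, with 674, 903, 613 and 492 bp.

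Each region was next classed by which libraries held a peak in it. Of the 94 regions 43 were called in all 4 libraries (45.7%), 17 in 3, 8 in 2 and 26 in a single one (27.7%), and the backgrounds over the series were 41.7% for all 4 and 30.7% for a single library. The second knockout library called 11 regions by itself (11.7%, background 9.13%) and the first 8 (8.51%, background 10.9%). The first WT library called 5 (5.32%, background 4.60%) and the second 2 (2.13%, background 6.06%). Both knockout and neither WT library called 2 regions (2.13%, background 3.05%), and both WT and neither knockout library called 0 (background 2.19%), so neither share stood far from that of the series. The first knockout-only region lay at 53443702 to 53444100, with folds of 4.47 and 3.85, and the second at 53676188 to 53676532, with 3.38 and 3.84. Both lay in the lower of the stretches that recur, and the partner of each, at 53754133 to 53754895 and 53987020 to 53987831, was called in all 4 libraries. Both counts rest on the choice of libraries and peaks. Leaving out WT replicate 1, WT replicate 2, knockout replicate 1 or knockout replicate 2 gave 3, 9, 15 and 10 knockout-only and 2, 5, 4 and 5 WT-only regions. Each of these rules has fewer libraries to separate than the full rule. With folds below 4 left out, WT-only regions were 6. The shares over the series under these settings were not computed.

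**Figure D5:**
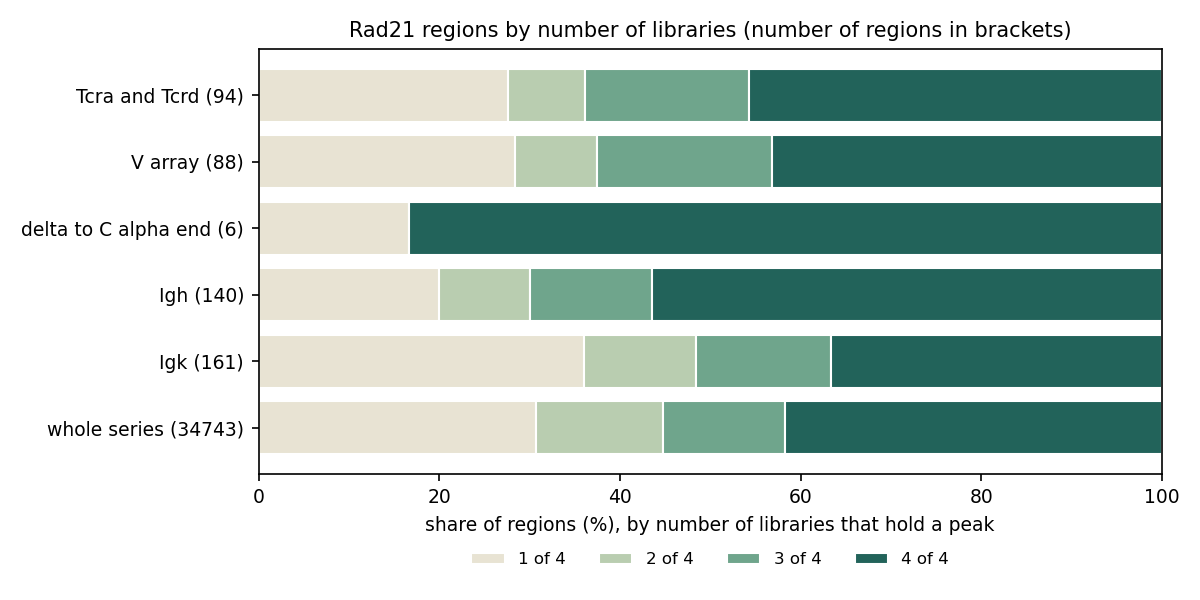
Share of Rad21 regions (x axis, percent) held by 1, 2, 3 or 4 of the libraries (colours) in Tcra and Tcrd, its V array, its delta to C alpha end, Igh, Igk and the whole series. Regions held by all 4 libraries make up 45.7% of the locus and 83.3% of the 6 regions at its delta to C alpha end.

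Overlap between libraries was measured by the Jaccard index, the length shared by 2 libraries divided by the length covered by either. It was 0.476 between the WT libraries and 0.370 between the knockout libraries. The 4 pairs of different genotype gave 0.383 to 0.476, so that the knockout pair lay below them all. Over the whole lists it did so too, with 0.420 against 0.428 to 0.464, and the WT pair had 0.482. In the locus the mean was 0.423 within and 0.429 between genotypes, against 0.451 and 0.443 over the whole lists. The locus difference was smaller than the spread of pairs of different genotype (SD 0.050). Of the regions held by WT 1 and WT 2, 52 were common, which is 81.3% and 85.2% of theirs, and the knockout libraries had 53 in common, 77.9% and 73.6% of theirs. The mean difference of −0.006 became 0.090 without knockout replicate 1 and 0.004 without knockout replicate 2. It was 0.036 with folds below 4 left out.

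Set beside the immunoglobulin loci, which B lineage cells rearrange, Tcra and Tcrd lay between them in peak density. The Igh window of 2.9 Mb held 37.3 ± 1.55 peaks per Mb and the Igk window of 3.4 Mb 30.2 ± 1.49 (SD, n = 4 libraries). Tcra and Tcrd were lower than Igh by 4.20 peaks per Mb and higher than Igk by 2.90, each in 4 of 4 libraries (two-sided exact sign-flip permutation p = 0.125 for both, adjusted p = 0.3125). The median spacing of neighbouring regions was shorter in Tcra and Tcrd, 11.3 kb against 16.1 kb in Igh and 16.2 kb in Igk. Bins 3 to 6, with a median of 10.8 kb, held 77 of its 94 regions. Merged regions numbered 94 in 2.0 Mb, 140 in the Igh window and 161 in the Igk window, so the shorter median does not mean more regions per Mb. Regions called in all 4 libraries made up 45.7%, 56.4% and 36.6% of the 3 loci, a difference that was not tested.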

How the data were processed

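Rad21 ChIP-seq was analysed in 4 libraries of mouse v-Abl pro-B cells, fixed with 1% formaldehyde. The submitters' processing notes name MACS2 2.2.7.1, deepTools 3.5.1, SAMtools 1.15.1, Bowtie2 2.4.4 and the build mm9, without roles or parameters. Each library had its own deposited list of 9 columns in broad peak layout. The deposited fold is a ratio of a peak's signal to background. The lists' significance, as deposited, is a −log10 p and a −log10 q per peak, the latter at least 1.01 to 1.02 in each list. The deposited score equals the −log10 q times 10, to within 1. Folds describe, rank or filter peaks within their list and were not compared between genotypes. The lists give no counts, so depth is unknown. The members, lists and tests were chosen with earlier results of these data known.

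Peaks were merged when touching and placed in bins by midpoint. A region counted as called in a library if 1 of its peaks lay in it. Genotypes were compared by exact permutation over 6 arrangements, and densities by exact sign flips over 4 libraries, with Benjamini-Hochberg adjustment over 10 tests. No p was computed per region. Named regions were, by rule, the strongest shared and the widest of each bin, all genotype-only regions, all of the delta to C alpha end, the longest gaps and those nearest the borders. Igh and Igk were approximate mm9 windows from background knowledge. Merging, classes and distances were tested on simulated data. Python 3.11.15, numpy 2.4.6 and pandas 2.3.3 were used. Alternatives were thresholds of −log10 q and fold, equal list lengths, overlap with the window, merging within 500 bp, other boundaries and bins, a replicate block and leaving out each library.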

Additional observations from a re-analysis of the deposited data

How the results depend on the processing

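The distance of 311 kb was examined only after the data were seen. It remained 310.75 to 311 kb when any 1 library was left out, and at a tolerance of 1000 bp 11.25 kb tied with it. With a −log10 q of at least 2, regions in all libraries became 26, knockout-only 4 and WT-only 1, the end minus V density −6.86, the locus minus all chromosomes 18.4 and separated bins 1, and the end difference turned to −0.5. With a fold of at least 4 the knockout minus WT differences turned to −3 peaks, −3.22 kb, −4 bp, −2 V array peaks and −1 end peaks and the Jaccard difference to 0.036, with 6 regions in all libraries, 6 WT-only, and densities of −4.29 (end minus V) and 11.4 (locus minus all). Only the second knockout list had a median fold below 4. Equal list lengths, keeping the peaks with the lowest p, gave 1 WT-only region and 1 separated bin. A boundary 50 kb lower or higher gave −18.4 and −18.8 for end minus V. Leaving out 1 library gave ranges of 5.5 to 9.5 peaks, 5.5 to 8.5 V array peaks, 0 to 1 end peaks, 0.511 to 12.4 kb, −9 to 134 bp, 12.5 to 150 bp at regions with 1 peak each, 44 to 50 regions in all libraries left, 3 to 15 knockout-only, 2 to 5 WT-only, 3 to 4 separated bins and −0.062 to 0.090 for the Jaccard difference. Densities ranged from −14.5 to −13.1 (end minus V), −5.10 to −3.36 (minus Igh), 2.07 to 3.23 (minus Igk) and 23.3 to 25.2 (minus all). The replicate block, which with 1 library per genotype and number must equal the difference of means, gave 7.5 peaks, 6.46 kb, 62.5 bp, 7 and 0.5, and −0.006 for Jaccard. Replicates share only a number and a name prefix, and differences of replicate 1 and 2 correlated at 0.03 between genotypes over 6963 bins. Of 82 values, leaving out a library aside, 60 kept their direction and stayed close, 15 moved further and 7 turned. Close meant within the spread between libraries or, for counts, within 1.5 times. The 60 include all values for overlap with the window, which equalled the main ones, with 0 peaks crossing its border. They also include the replicate block, where all but the Jaccard value had to equal the main ones. Not all of the 60 were thus open to change. Shares of regions and bins over the series were computed for the main setting only. The causes were not tested.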
